A study of Mus musculus with 15 samples.

Results

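The fragments described here were the reads that the study's small RNA tables filed as ncRNA or nrRNA, the 2 classes left for non-coding RNA beside microRNAs, transposon reads and the rest. They were chosen by that class and by a length of 18 to 40 nt, with nothing taken from their levels. This gave 301805 distinct sequences over the 6 libraries, 91917 of them ncRNA and 209888 nrRNA, among 1495520 to 11368616 distinct sequences of the same lengths in each library. Small RNA of 15–40 nt had been size-selected from whole testes of E16.5 mouse foetuses, 6 testes pooled for each library. The 3 control libraries came from Tex15+/- foetuses and the 3 knockout libraries from Tex15-/- foetuses, all on a mixed B6CBAF1/Crl and C57BL/6N background with no other agent given. The Tex15- allele, made by CRISPR/Cas9 editing of exon 5 and descending from a single founder, was carried by the controls too, in 1 copy. The study sequenced these libraries to ask whether loss of TEX15, a nuclear protein of germ cells, altered piRNAs, the small RNAs that guide PIWI proteins to transposons. Testes are a mixture of gonocytes and somatic cells, and fewer cells of a type and less RNA per cell cannot be told apart in such samples.

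Structural non-coding RNAs are the working parts of translation, splicing and RNA modification. A tRNA carries an amino acid to the ribosome and reads the codon with its anticodon, which lies in a loop that nucleases can cut, leaving 5′ and 3′ tRNA fragments. Ribosomal RNA is cut out of a long precursor, whose spacers are normally destroyed, and small nucleolar RNAs (snoRNAs) guide its chemical modification. Box C/D members are marked by the short letter runs called box C (TGATGA) and box D (CTGA), and box H/ACA members by a hairpin fold. Small nuclear RNAs (U1, U2 and others) build the spliceosome, Y RNAs bind the Ro protein, 7SL is the RNA of the signal recognition particle and 7SK holds back the elongation factor P-TEFb. The rodent repeat B1 descends from 7SL, and B2 from a tRNA, so short reads of these repeats resemble structural RNAs.

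The deposited tables left the name, family and class of every ncRNA and nrRNA read empty, so sequences were named here by exact match on the sense strand to annotated RNAs of the mouse assembly GRCm38. Some rRNA sequences described below were instead named by letters shared with a leading sequence or with the start of a ribosomal segment. With all these names, 87.0 to 91.7% of the ncRNA reads in the 6 libraries belonged to tRNA, rRNA, snRNA, snoRNA or another named structural RNA. For nrRNA the share was only 13.3%, 9.39% and 6.45% in the controls and 16.2%, 39.7% and 19.8% in the knockouts, each knockout above every control. Instead, 35.7 to 61.99% of the nrRNA reads had 100 or more exact copies in the genome, and no nrRNA sequence was without a copy. The heading of structural RNA therefore held for ncRNA, in knockout 2 partly through the family without an exact copy. It went against the data for most of nrRNA. Sequences without a structural name were grouped by their genome copies as repeated (100 or more), other locus (1 to 99), antisense to a structural RNA, or not in the assembly.

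A set of frequent or contrasting sequences, not a ranking, shows where these fragments lie in their parent RNAs. For rRNA, capitals mark the letters by which a longer form extends a shorter one; they mark the anticodon in tRNA-Met-CAT and the added CCA tail in tRNA-Ala. In snoRNAs and the chromosome 15 sequence, capitals mark letters equal to box C (TGATGA) or box D (CTGA).
tRNA-Gly-GCC, bases 1–31 of 74: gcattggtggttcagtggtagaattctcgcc
tRNA-Val-CAC, -AAC and -ACC, bases 1–23 of 76: gtttccgtagtgtagtggttatc
tRNA-Met-CAT, bases 34–54 of 76: CATaatctgaaggtcctgagt
tRNA-Ala-TGC and -CGC, bases 58–75 of 75: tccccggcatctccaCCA
28S-type rRNA, 34 nt: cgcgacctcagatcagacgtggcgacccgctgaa
28S-type rRNA, 36 nt: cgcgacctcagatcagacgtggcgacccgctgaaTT
28S-type rRNA, 37 nt: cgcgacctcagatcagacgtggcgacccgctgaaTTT
spacer upstream of 18S rRNA, 36 nt: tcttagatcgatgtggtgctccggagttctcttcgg
5S rRNA, bases 82–120 of 121: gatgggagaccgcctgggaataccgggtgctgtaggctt
Snord43, bases 21–48 of 48: actctgtgCTGAatgtcaagttCTGAtt
U3, bases 76–96 of 215: ccacgaggacgagacgtagcg
Snord118, bases 48–75 of 135: gaaaaTGATGAttggagcttgcatgatc
Snord74, bases 44–73 of 80: gcttgtTGATGAataccaacgattCTGAtg
Snord25, bases 42–68 of 72: tatctgtgaggataagtaactCTGAgg
Y1 RNA, bases 1–32 of 111: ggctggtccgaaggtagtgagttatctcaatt
Y1 RNA, bases 83–110 of 111: cttctcactactgcacttgactagtctt
Y3 RNA, bases 1–24 of 101: ggttggtccgagagtagtggtgtt
U1, bases 147–164 of 164: cgttcgcgctctcccctg
U2, bases 94–115 of 187: aatggatttttggaagtaggag
chromosome 15 locus, 32 nt: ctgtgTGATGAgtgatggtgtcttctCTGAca
chromosome 2 locus, 29 nt: acgacttgaaaaatgacgaaatcactaaa

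These fragments made up 4.96%, 4.504% and 5.60% of all 18–40 nt reads in controls 1 to 3 and 4.76%, 8.84% and 5.001% in knockouts 1 to 3. In reads this was 707926 in the smallest set (control 1) and 3856460 in the largest (control 2), whose library was the deepest with 85629360 reads of 18–40 nt against 11887335 to 21649969 in the others. Knockout 2 stood apart with the highest share, and values with and without it are given where it decides a result. Control 3 stood apart in a block of repeats described below. Sequencing was concentrated on few sequences, since the 10 most frequent held 29.5% of all these reads and the 11609 sequences seen in every library held 88.4%, while 210686 were seen in a single library.

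The nrRNA reads were less frequent in every knockout library than in any control, while the ncRNA reads were more frequent in a way that depended on which lengths and families were counted. For ncRNA, the share of all 18–40 nt reads was 3.97%, 3.55% and 4.11% in the controls and 4.14%, 8.16% and 4.37% in the knockouts. Without knockout 2 the knockout mean fell from 5.56% ± 2.26 (SD, n = 3) to 4.25%, against 3.88% ± 0.29 in the controls. Over reads of 18–32 nt, the range the study annotated, the ncRNA shares were 2.76%, 2.62% and 3.03% in the controls and 2.51%, 4.39% and 3.12% in the knockouts, so that the groups overlapped with knockout 1 the lowest of all (exact permutation test, p = 0.60). The groups also overlapped without the 28S-type rRNA family described below, at 3.63%, 3.33% and 3.90% in the controls and 3.79%, 5.34% and 4.02% in the knockouts, and with microRNA reads left out of the total (exact permutation test, p = 0.20 for both). For nrRNA, the share was 0.997%, 0.958% and 1.48% in the controls and 0.619%, 0.675% and 0.635% in the knockouts, so that each knockout library lay under every control, as it did at 18–32 nt. With 3 against 3 libraries the exact two-sided permutation test cannot go below p = 0.10, the value both differences reached at 18–40 nt. Nothing in the labels says that the pools of a group came from separate litters, so these tests measure the spread between pools.

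In length, the ncRNA and nrRNA reads were different populations. The ncRNA reads peaked at 31 nt in 4 libraries, at 33 nt in knockout 1 and at 36 nt in knockout 2, and 50.4 to 62.6% of them were 31–40 nt long. In contrast, nrRNA reads peaked at 28 nt in every library, and 65.2%, 68.3% and 74.2% of them in the controls were 25–30 nt long, the length of piRNAs. This 25–30 nt part of nrRNA was smaller in the knockouts, at 59.9%, 43.4% and 59.7%, and the groups did not overlap (exact permutation test, p = 0.10, or 0.29 adjusted over 44 length comparisons). Without knockout 2 the direction was the same in each library. The 25–30 nt part of ncRNA was smaller in the knockouts as well, in all 9 alternatives run (knockout minus control, -7.42 to -2.30 percentage points).

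The first base differed between them too, though the T shares below are of 25–30 nt reads for nrRNA and of all lengths for ncRNA. A first T (U in the RNA), typical of piRNAs, opened 77.5%, 77.5% and 62.4% of the 25–30 nt nrRNA reads in the controls and 77.5%, 71.9% and 75.1% in the knockouts, with overlapping groups. The low value of control 3 went with an excess of A, which opened 20.1% of its nrRNA reads against 7.99% and 9.002% in the other controls. Over all lengths the T share of nrRNA was lower in the knockouts in all 10 alternatives run (knockout minus control, -11.1 to -1.68 percentage points). Among ncRNA reads T opened 39.2%, 39.8% and 41.3% in the controls and 47.4%, 26.2% and 37.8% in the knockouts. Knockout 2 was the low value, with C opening 47.6% of its ncRNA reads against 16.6 to 23.0% elsewhere.

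Transfer RNA fragments were the largest kind in 5 of 6 libraries. They took 40.8%, 41.8% and 44.0% of the ncRNA and nrRNA reads in the controls and 52.2%, 29.99% and 48.5% in the knockouts, where rRNA exceeded them in knockout 2. In RPM, the usual scaling of reads to the library total, here of all 18–40 nt reads, they stood at 20270, 18836 and 24649 in the controls and 24862, 26510 and 24278 in the knockouts, and the groups overlapped (exact p = 0.20). Most were cut from the 5′ side, as 75.4 to 82.8% of tRNA reads began at base 1 of the tRNA. A minority of 2.21 to 4.49% ended in CCA, the tail added to mature tRNAs, and the means of the groups were 2.96% ± 0.73 and 2.98% ± 1.31.

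A pair of tRNAs supplied most of these reads. tRNA-Glu-CTC, which inserts glutamate, held 46.0% of tRNA reads on average and stood at 8704, 7877 and 10618 RPM in the controls and 14022, 12948 and 10493 in the knockouts. Knockout 3 lay within the control range, and the log2 fold change of 0.65 ± 0.21 (SE) did not pass (edgeR quasi-likelihood test, adjusted p = 0.18). tRNA-Gly-GCC, which inserts glycine, held 32.5% and stood at 5999, 6732 and 9698 RPM in the controls and 6185, 7950 and 8605 in the knockouts (log2 fold change 0.19 ± 0.21). Of the tRNA-Gly-GCC reads, 49.1 to 68.0% were 31 nt long. The leading sequence, which runs from base 1 to base 31, the first base of the anticodon loop, was at 2786, 3593 and 5225 RPM in the controls and 3117, 5096 and 4417 in the knockouts, and control 3 was the highest of all 6.

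Other tRNAs were cut elsewhere. The valine tRNAs gave a 23-nt piece from base 1, at 677, 231 and 310 RPM in the controls and 488, 349 and 418 in the knockouts, a sequence shared by the CAC, AAC and ACC names so that each name counts it. tRNA-Lys-CTT, at 677 to 904 RPM in the controls and 692 to 804 in the knockouts, peaked at 33 nt. The elongator tRNA-Met-CAT differed in giving a 21-nt internal piece that began with the anticodon itself, at 187, 200 and 211 RPM in the controls and 190, 184 and 193 in the knockouts. tRNA-Ala-TGC and tRNA-Gln-CTG gave mainly 18-nt pieces of the 3′ end. The tRNA-Ala piece with its CCA tail was at 152, 196 and 134 RPM in the controls and 102, 290.9 and 94.4 in the knockouts, with the knockouts spread around the controls. Of the remaining tRNAs of the fixed list, tRNA-His-GTG was at 143.7 to 338 RPM in the controls and 246 to 322 in the knockouts. Mitochondrial tRNAs were rare at 8.38 to 68.7 RPM in all 6, nearly all from mt-Ts1, a serine tRNA.

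Ribosomal fragments were where knockout 2 departed from the rest. They took 16.7%, 13.5% and 9.85% of the ncRNA and nrRNA reads in the controls and 16.02%, 44.1% and 16.51% in the knockouts. In RPM they were at 8306, 6086 and 5514 in the controls and 7626, 38945 and 8259 in the knockouts, so knockouts 1 and 3 lay near control 1. The mean share without knockout 2 was 16.3%, against 13.4% ± 3.44 in the controls and 25.5% ± 16.05 with it.

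The excess came mostly from 1 family of sequences that begin with the letters of the mature 28S rRNA's 5′ end, known from textbook sequence and here called 28S-type because the assembly has no exact copy of them. Its members share an 18-nt run with the leading sequence, the 36-nt form, picked by mean share over all libraries, knockout 2 included. The height of that form in knockout 2 is thus part of why it was picked. The fold changes and adjusted p of the family and of this form are not independent of that choice. Of its reads, 95.9 to 98.7% began at the same base, so that these RNAs share a fixed 5′ end and vary at the 3′ end. The family was at 3546, 2283 and 2228 RPM in the controls and 3612, 29802 and 3618 in the knockouts. All knockouts lay above all controls, though knockouts 1 and 3 by a small margin, and the log2 fold change of 2.35 ± 0.85 (adjusted p = 0.20) fell to 0.61 without knockout 2. The family's 34-nt form was at 1402, 829 and 770 RPM in the controls and 1093, 2838 and 1236 in the knockouts. Its 36-nt form, with 2 more T, was at 371, 281 and 238 RPM in the controls and at 413, 17840 and 395 in the knockouts (log2 fold change 4.27 ± 1.37, adjusted p = 0.084). Sequences of 36 nt made up 59.9% of the family's reads in knockout 2, against 10.6 to 12.5% in the other libraries, while the 37-nt form with a further T was at 1398 RPM there and 252 to 530 elsewhere.

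Fragments of the ribosomal spacer upstream of 18S rRNA were the next family, named here by their overlap, of at least 12 nt, with the first bases of the rDNA segment on chromosome 17 (first base 39842997). They were at 2899, 2312 and 1754 RPM in the controls and 2593, 3549 and 2603 in the knockouts, and the groups overlapped (log2 fold change 0.49 ± 0.25, adjusted p = 0.31). Their leading start, the TCTTAGAT of the printed sequence, opened 46.4 to 49.2% of their reads, and they had a broad spread of lengths with at most 9.99% at 20 nt. Pieces of 18S rRNA itself, the RNA of the small subunit, were at 941, 878 and 894 RPM in the controls and 674, 2502 and 1008 in the knockouts, spread over 13306 sequences. 5S rRNA, the small RNA of the large subunit, was at 608, 381 and 411 RPM in the controls and 493, 2057 and 663 in the knockouts. The 420-nt segment annotated as 28S rRNA was at 312, 232 and 227 RPM in the controls and 254.8, 1034 and 367 in the knockouts. Knockout 2 was again the highest for all 3. The 39-nt 5S sequence printed above was picked by mean share over all libraries, knockout 2 included. It was at 15.9, 4.83 and 1.25 RPM in the controls and 4.34, 425 and 75.7 in the knockouts. Its height in knockout 2 is thus part of why it was picked. Mitochondrial mt-Rnr2, the large mitochondrial rRNA, was near 0 at no more than 0.163 RPM.

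The snoRNA fragments were even across the libraries. They stood at 5975, 5628 and 5772 RPM in the controls and 5573, 6869 and 6414 in the knockouts (exact p = 0.40), or 12.03%, 12.5% and 10.3% against 11.7%, 7.77% and 12.8% of the ncRNA and nrRNA reads. Box C/D snoRNAs gave nearly all of them, at 5428 to 6674 RPM over the 6 libraries, while box H/ACA snoRNAs gave 136 to 195 and the scaRNAs of Cajal bodies at most 0.252. They peaked at 28 nt in every library, and 50.9 to 57.9% were 25–30 nt long. Unlike tRNA fragments, only 2.59 to 3.26% began at the first base of the snoRNA, while 21.3 to 29.7% ended at the last.

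The box letters were frequent in them. The letters CTGA occurred in 76.2 to 79.5% of the snoRNA reads, against 1.96 to 2.99% of the tRNA reads, 30.02 to 69.4% of the rRNA reads, 20.7 to 36.5% of the repeated reads described below and 18.5 to 40.4% of all these reads, searched on the strand sequenced. TGATGA occurred in 23.3 to 28.1% of snoRNA reads and 2.20 to 3.89% of all, and both runs share letters where CTGATGA is read. By distinct sequence, CTGA was in 62.1% of the snoRNA sequences and 17.5% of all. A match describes the letters and does not show that a read carries a working box.

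By name, U3, which guides the first cuts of the rRNA precursor, was the largest at 861, 933 and 869 RPM in the controls and 876, 1047 and 941 in the knockouts. Its 21-nt piece from base 76 was at 371, 374 and 364 RPM in the controls and 404, 383 and 371 in the knockouts, with overlap. Snord43, within Rpl3 (chr15:80082859-80082906, minus strand), was at 782, 772 and 824 RPM in the controls and 599, 1054 and 878 in the knockouts, and 95.7% of its reads ended at the last base of the snoRNA. Snord118 (U8), needed for rRNA of the large subunit, lies at chr11:69073427-69073561 and was at 459, 350 and 385 RPM in the controls and 329, 324 and 408 in the knockouts, with 91.8% of its reads being the single 28-nt sequence shown. Although it is a structural RNA, the tables filed that sequence as nrRNA.

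A few snoRNAs separated the groups by a small margin. Snord74, within Gas5 (chr1:161035394-161035473), was at 447, 491 and 526 RPM in the controls and 529, 535 and 533 in the knockouts. Snord25, within Snhg1 (chr19:8723993-8724064), was at 327, 319 and 333 RPM in the controls and 426, 464 and 403 in the knockouts, all above the controls. Its log2 fold change was 0.58 ± 0.17, which edgeR did not call (adjusted p = 0.17) and DESeq2 did (0.60 ± 0.17, adjusted p = 0.0097). The leading 27-nt sequence of Snord25 did not separate them, at 107, 123 and 148 RPM in the controls and 136, 136 and 130 in the knockouts. Snord116 and Snord115, imprinted snoRNA clusters of neurons, were near 0 with at most 0.210 RPM.

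Spliceosomal snRNAs gave few fragments, 177 to 234 RPM in the controls and 198.8 to 375 in the knockouts. U2, which pairs with the branch point, was at 93.6, 77.5 and 69.7 RPM in the controls and 84.9, 130 and 79.9 in the knockouts. U1, which pairs with the 5′ splice site, was at 83.7, 69.0 and 56.8 RPM in the controls and 73.7, 178 and 69.5 in the knockouts. Knockout 2 was the highest in both. The U1 sequence printed above, its last 18 bases, ranked first by mean share of snRNA reads over all libraries, knockout 2 included. It was at 1.61, 2.11 and 2.06 RPM in the controls and 3.60, 41.6 and 3.33 in the knockouts. Its height in knockout 2 is thus part of why it was picked. The minor snRNAs U11 and U12, the histone snRNA U7, and U4, U5 and U6 were at 2.06 to 26.4 RPM, with overlapping groups in each.

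Y RNA fragments came from both ends of the molecule. Y1 was at 720.5, 801 and 849 RPM in the controls and 416, 1151 and 1026 in the knockouts, so knockout 1 lay under and knockouts 2 and 3 above every control. Its 5′ piece of 32 nt (chr6:47788149-47788180, minus strand, gene Rny1) was at 252, 222.7 and 177 RPM in the controls and 147, 212 and 245 in the knockouts. Its 3′ piece of 28 nt was at 59.1, 119 and 187 RPM in the controls and 32.9, 300.4 and 201.8 in the knockouts. The groups overlapped for both pieces. Y3 was at 86.2, 91.2 and 90.9 RPM in the controls and 102, 212 and 119 in the knockouts, all above the controls, with a log2 fold change of 0.85 ± 0.28 (adjusted p = 0.18) that fell to 0.48 without knockout 2. Its 24-nt 5′ piece was at 22.3, 25.2 and 24.3 RPM in the controls and 32.8, 83.4 and 36.5 in the knockouts. Among the rest, 4.5S RNA was at 162 to 172 RPM in the controls and 144.8 to 161 in the knockouts, 7SL at 39.3 to 74.1 and 35.7 to 131, and 7SK at 15.0 to 18.5 and 11.4 to 16.4.

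The repeated sequences, those with 100 or more exact genome copies, were fewer in every knockout library than in any control. They were at 7799, 7621 and 9770 RPM in the controls and 4294, 2964 and 4121 in the knockouts, with means of 8397 ± 1193 and 3793 ± 723 (SD) (0.452-fold, exact permutation test p = 0.10, the smallest it can give). Every knockout lay far under every control, with and without knockout 2. As a share of the ncRNA and nrRNA reads they were 15.7%, 16.9% and 17.5% in the controls and 9.02%, 3.35% and 8.24% in the knockouts. They peaked at 27 nt in every library and began with T in 76.8 to 81.7% of reads.

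Each repeated sequence was given the transposon name with which it shared most 18-nt runs among the reads the tables filed as transposon RNA, which is a name by likeness and not a mapping. By that name B1-like sequences, 19273 of them, made up 50.7% of the repeated reads. They were at 4765, 4264 and 5462 RPM in the controls and 1958, 1385 and 1605 in the knockouts, 2.93-fold lower. B2-like sequences were at 458, 424 and 544 RPM in the controls and 210, 147 and 201 in the knockouts, 2.56-fold lower. L1Md-like sequences, named for mouse LINE-1 elements, were at 2334, 2623 and 2507 RPM in the controls and 1951, 1290 and 2097 in the knockouts, 1.40-fold lower, with knockouts 1 and 3 close under the controls. Of these, L1Md_F2-like ones were at 1687, 1722 and 1414 RPM in the controls and 1393, 979 and 1453 in the knockouts, and the groups overlapped, as they did for L1Md_T. Those like L1Md_A were at 542, 773 and 983 RPM in the controls and 443, 237 and 516 in the knockouts, without overlap. Sequences like any of the 268 other element names were at 237, 303 and 1246 RPM in the controls and 171, 139 and 213.9 in the knockouts, 3.41-fold lower, or 1.55-fold without control 3, which was the highest. The largest of these names, IAPEy-int, was at 319 RPM in control 3 and at most 17 in any other library. RLTR31D_MM had no such excess, at 25.6, 36.7 and 31.8 RPM in the controls. Control 3 was also the highest in the satellite block described below, and whether these sequences belong with it was not tested. None of the 4 sets overlapped between genotypes, and the sizes of their differences were not tested against each other. Lack of overlap was common, at 32.7% of all 1678 small RNA names, with 26.9% of the names being lower.

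Reads that the tables themselves filed as B1 and B2 transposon RNA, which are not among the sequences described here, were measured in the same libraries. The B1-like and B2-like names above came from runs shared with such reads, so these reads are not an independent measure. Those of B1 were at 10711, 9525 and 9804 RPM in the controls and 6799, 4749 and 5697 in the knockouts. Those of B2 were at 6933, 6967 and 7943 RPM in the controls and 3520, 3225 and 3263 in the knockouts, again without overlap. For L1Md the transposon reads overlapped, at 95752, 115140 and 106405 RPM in the controls and 121222, 68497 and 112750 in the knockouts. Those of the other elements overlapped too, at 300595, 311768 and 292486 RPM in the controls and 329108, 257187 and 301294 in the knockouts.

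Among single repeated sequences, the most frequent B1-like one, of 27 nt with 21873 genome copies, was at 250, 325 and 546 RPM in the controls and 132, 65.0 and 112 in the knockouts. Its log2 fold change was -1.85 ± 0.44, with an edgeR adjusted p of 0.038. A B1-like sequence of 26 nt and 38022 copies, which had the smallest adjusted p of all single sequences, was at 121, 76.7 and 89.8 RPM in the controls and 37.7, 29.7 and 37.5 in the knockouts (log2 fold change -1.43 ± 0.28, edgeR adjusted p = 0.027). The most frequent repeated sequence of all, a 28-nt L1Md-like one, was at 341, 387 and 283 RPM in the controls and 249, 175 and 302.03 in the knockouts, with overlap. These sequences have copies throughout the genome and are not printed.

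Sequences of other loci were led by a 32-nt piece at a single site, chr15:64292715-64292746 on the minus strand, within an intron of Asap1, which runs on the same strand. It held both TGATGA and CTGA, the letters of boxes C and D, but matched no annotated structural RNA of a given type. RNAs annotated without a type were not used for naming. Its level was 143.9, 142.4 and 127 RPM in the controls and 144.8, 177 and 138 in the knockouts, with overlap. The set as a whole was at 4834, 4588 and 7959 RPM in the controls and 3448, 7291 and 3992 in the knockouts, with overlap through knockout 2 alone, since knockouts 1 and 3 lay under every control. As a share of the ncRNA and nrRNA reads, other loci made up 9.74%, 10.2% and 14.2% in the controls and 7.25%, 8.25% and 7.98% in the knockouts, with no overlap (exact permutation test, p = 0.10), but the groups overlapped over all 18–40 nt reads (exact permutation test, p = 0.50).

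Control 3 owed its height there to satellite-like sequences. In all, 4103 members had their first exact match in a block of chromosome 2, between bases 98662235 and 98667259, a stretch known for copies of the major satellite, the repeat of mouse pericentromeres. All were nrRNA, 81.8% of their reads were 25–30 nt long, and they were at 84.7, 282 and 4132 RPM in the controls and 9.09, 2.10 and 82.6 in the knockouts. Control 3 was 14.7-fold above control 2 and 48.8-fold above control 1. The 29-nt sequence printed above, found at chr2:98662269-98662297 on the minus strand and with 4 exact copies in all, was at 7.15, 20.4 and 239 RPM in the controls and 0.171, 0 and 2.63 in the knockouts. Without this block the nrRNA share of all reads was 0.989%, 0.930% and 1.07% in the controls and 0.618%, 0.675% and 0.627% in the knockouts, so the genotype difference in nrRNA did not rest on control 3. The A-first share of nrRNA in control 3 then became 9.46%, close to the other controls.

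Sequences antisense to structural RNAs were rare, at 163, 179 and 262 RPM in the controls and 124, 55.5 and 123 in the knockouts, with no overlap. Their leading forms, of 21 and 22 nt, lay opposite the 3′ part of 18S rRNA (chr17:39848058-39848079) at no more than 11.9 RPM. Sequences without a copy in the assembly were at 1000, 787 and 719 RPM in the controls and 753, 3707 and 1249 in the knockouts, with knockout 2 again the highest. Whether any of them were ribosomal was not tested.

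Across the 6 libraries, 167 named structural RNAs passed the filter on low counts out of 231 that had reads, and none of them was called by edgeR at an adjusted p under 0.01, where 0.0596% of all 1678 small RNA names tested (1 transposon) was. DESeq2 called 1, Snord25, but its share of calls over all names is not given here, so this count has no background beside it. At an unadjusted p under 0.05 the edgeR test had 29 of the 167, or 17.4%, against 21.3% of all names. The groups did not overlap in RPM for 22 of them (13.2%), against 32.7% of all names. By the sign of the TMM-scaled fold change, 18 of the 22 were higher and 4 lower. Of all names, 5.78% did not overlap and were higher and 26.9% lower, but there by mean RPM. These splits are therefore not on the same scale. By kind, the numbers at an unadjusted p under 0.05 were 8 of 49 tRNA, 3 of 5 rRNA, 0 of 8 snRNA, 17 of 100 snoRNA and 1 of 5 other names. The median log2 fold change was 0.29 over the 167 names, and 0.23 without knockout 2, with tRNA at 0.30, snoRNA at 0.28 and rRNA at 1.25 (0.44 without knockout 2). Library scaling matters for such medians, since without TMM factors the median of all names moved from -0.03 to -0.21, and that of the 167 to 0.13.

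Of single sequences, 4322 had enough reads to test, and edgeR called none at an adjusted p under 0.01 (0%), while 1165 (27.0%) had an unadjusted p under 0.05. The repeated sequences were 1118 of them, of which 699 (62.5%) had an unadjusted p under 0.05, 697 of them lower (62.3%). Of all single sequences 805 (18.6%) were lower at that p, most of them these same repeated ones. The median log2 fold change of the repeated sequences was -1.34, or -1.13 without knockout 2. The filter asks for enough reads in only as many libraries as 1 group has. Sequences high in the controls alone could therefore enter these shares and medians. Medians of the named kinds were 0.14 for 909 tRNA, 0.09 for 615 snoRNA and 0.37 for 605 rRNA sequences, or 0.21, 0.13 and 0.21 without knockout 2. DESeq2 called 129 of the 5042 sequences it tested (2.56%). The 84 lower ones (1.67%) were 49 of 1207 repeated sequences (4.06%) and 35 of 912 of other loci (3.84%), and the 45 higher ones (0.893%) were 16 rRNA, 14 without a copy in the assembly, 13 of other loci and 2 snoRNA sequences. Kept to the 2117 sequences with at least 10 reads in every library, edgeR called 43 (2.03%), of which 38 (1.79%) were lower, all of them among 343 repeated sequences (11.1%). The 5 higher ones (0.236%) were 3 of other loci, 1 without a copy in the assembly and 1 snoRNA sequence. With the replicate number as a block, edgeR called 18 of 4322 (0.416%), all lower, of which 15 were among 620 of other loci (2.42%) and 3 among 1118 repeated sequences (0.268%). None of the repeated sequences called by any of these was higher.

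In RNA-seq of E16.5 gonocytes, labelled Tex15+/- and Tex15-/- and, by the study's methods, sorted by tdTomato from foetuses that all carried 1 Miwi2 tdTom allele as well, a poor readout of such short RNAs, 109 genes of the same RNAs were listed and 20 had enough counts to test. Tex15 itself was at 1502, 1699 and 1633 CPM (counts scaled to the library total) in the controls and 466, 222 and 243 in the knockouts there. Even Tex15 narrowly missed the threshold of 0.01 (log2 fold change -2.35 ± 0.23, edgeR adjusted p = 0.011). A gene left uncalled by this test is thus not shown to be unchanged. Under edgeR none of the 20 was called at an adjusted p under 0.01 (0% of 16311 genes were), 5 of them had an unadjusted p under 0.05, against 9.18% of all genes, and DESeq2 called none. Their median log2 fold change was -0.48, against 0.01 over all genes. Rny1 was at 17.1, 28.6 and 34.0 CPM in the controls and 19.7, 17.9 and 18.8 in the knockouts, and Snord118 at 87.2, 114 and 141.9 against 85.8, 39.3 and 87.3, with overlap in both. Rny3, the gene of Y3, was at 76.7, 107.9 and 141 CPM in the controls and 75.8, 83.9 and 75.1 in the knockouts there, a log2 fold change of -0.43 ± 0.19 (adjusted p = 0.52) against 0.85 for its fragments in whole testes.

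The cell makeup of the pools was read from mature microRNAs, since no message is measured in small RNA. Over a list of 20 germ cell microRNAs the summed level was 1247 to 1446 RPM in the controls and 1378 to 2264 in the knockouts. The endothelial list stood at 15043 to 19971 and 12587 to 18040, the blood list at 62.8 to 100.1 and 50.2 to 71.6, the mesenchymal list at 25873 to 29642 and 18596 to 26109, and the Sertoli list at 986 to 1003 and 702 to 1174. No microRNA of these lists was called, and their part in the results was not tested.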

How the data were processed

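Small RNA libraries of E16.5 testes (3 Tex15+/-, 3 Tex15-/-) were deposited as tables in which the authors give a whole-number count for each distinct sequence and annotation. According to the study's methods, adaptors were trimmed with cutadapt and reads of 18–32 nt annotated with bowtie; the submitters' processing notes list cutadapt 1.8.1, Bowtie 1.2.1.1 and build mm10. The reference sets behind ncRNA and nrRNA are not given in the sources used here. Gonocyte gene counts, also deposited by the authors, were tested separately.

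Sequences were named by exact sense match (bwa 0.7.19-r1273) to GENCODE and RefSeq RNAs of GRCm38, their copies of at least 85% identity over 80% of length (blastn 2.17.0), and tRNAs with CCA added. The 28S-type family was instead named by an 18-nt run shared with its leading sequence. The spacer family also took reads overlapping the first bases of its rDNA segment by at least 12 nt. This naming replaced the planned use of the tables' own names, which were empty. Annotated RNAs whose type was not given, unless copies of a typed RNA, gave no name. Their reads lie among the sequences without a structural name. Repeats took names from transposon reads sharing 18-nt runs; structural RNAs share such runs too, so the runs are no evidence of origin. A read matching several names counted in each. RPM used all 18–40 nt reads (11887335 to 85629360 per library). Kinds were compared by exact two-sided permutation tests. Names and sequences were compared by edgeR 4.0.16 quasi-likelihood tests with TMM and Benjamini-Hochberg adjustment, and by DESeq2 1.42.0 as an alternative. For names, TMM factors and adjustment covered all small RNA names tested. For single sequences they covered only the ncRNA and nrRNA sequences tested, so those fold changes are relative to these sequences. The edgeR and DESeq2 fits were both tested on simulated counts. Members, lists and names were chosen with earlier results of these data known: names given are the 5 leading per kind plus a list, and sequences come from the 2 leading per kind, of which repeated and antisense sequences, those not in the assembly, 1 of other loci and 1 tRNA sequence are not printed; the others printed, the 28S-type family and the satellite block were picked after their values were seen. No molecular identifiers were used, so PCR copies count as reads. Single sequences of 1 tRNA are not reported here.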

Additional observations from a re-analysis of the deposited data

How the results depend on the processing

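Differences are given as knockout minus control. Of the compared shares, the lower shares of nrRNA, of repeated sequences and of the 25–30 nt part of nrRNA, and the higher shares of ncRNA and rRNA, kept their direction under every alternative run. With 1 library left out they ranged from -0.598 to -0.335, -10.9 to -8.06, -17.6 to -9.39, 0.378 to 2.39 and 2.90 to 16.9 percentage points. The lower 25–30 nt part of ncRNA (-7.42 to -2.99) and first-base T share of nrRNA (-10.7 to -1.68) kept theirs too. The rRNA difference (12.2 points) became 1.39 with the 28S-type family left unnamed and 3.13 with it left out. The snoRNA share (-0.845 points) turned to 0.895 with 18–32 nt reads alone, 1.70 with each distinct sequence counted once, 0.0494 over all 18–40 nt reads and 0.453 without the 28S-type family, and ranged from -1.87 to 0.653 with 1 library left out. The share of other named RNAs (-0.191) likewise became 0.289, 0.616, 0.0137 and 0.114, with a range of -0.546 to 0.0860. Mean ncRNA length (0.80 nt) became -0.486 at 18–32 nt and -0.0872 by distinct sequences; mean nrRNA length (0.175 nt) became -0.752 and -0.518, with a range of -0.210 to 0.453. First-base T of ncRNA (-2.98) became 1.69 without the 28S-type family and ranged from -8.12 to 2.48. Leaving out 1 library moved the tRNA share from -2.96 to 8.16, snRNA from -0.0318 to 0.0465 and CCA ends from -0.735 to 0.405. Without the satellite block nrRNA differed by -0.357 and other loci by -1.79. The cause was not tested. Leaving out or not naming the 28S-type family, or leaving out the satellite block, was chosen after seeing the data. DESeq2 called 1 name and 129 sequences, a minimum of 10 reads in every library gave 43 sequences, and dropping the count filter gave 2 gonocyte genes, against 0 in each main test. For the DESeq2 name and the 2 gonocyte genes, the share called over all names or genes in the same fit is not given here. Those counts therefore cannot be set against a background. A replicate block gave 18 sequences, all lower, and no name; same-numbered libraries correlated at -0.059, -0.012 and 0.18 over all names, at -0.084, 0.060 and 0.20 over single sequences and at 0.24, 0.33 and 0.11 over the 167; in the last set alone each was best with its own number, which is a hint from the data and not from the labels. No sequence was listed under a second type, so leaving such sequences out could not be run. Groups of 3 and unknown PCR copies limit what these depths can show.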
